A study of Mus musculus with 8 samples.

Results

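The 9 genes described are Ren1, Agt, Agtr1a, Ace, Enpep, Mme, Anpep, Atp6ap2 and Klk1, which encode renin, its substrate, the mouse angiotensin receptor and the peptidases that form or clear angiotensin and kinin peptides in the kidney. They were taken by symbol from a table of 30146 mouse genes and all 9 were found, each under a single identifier. All 9 had a mean of at least 1 TPM and were among the 11796 genes that were tested. TPM is a relative abundance of transcripts that is corrected for their length. Kidney RNA came from C57/BL6 mice that carry haplotype II (Hap-II) of the human gene for the angiotensin receptor type 1 and were fed a western diet. Adult animals (4) were compared with aged animals (4), with 1 library from each animal. The transgene and the diet were shared by both groups, the labels give no ages in months, and they do not name the promoter that drives the transgene. The human transgene itself was not analysed here.

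Renin, released by juxtaglomerular cells at the glomerular arteriole, cleaves angiotensinogen to angiotensin I, and angiotensin-converting enzyme (Ace) trims that peptide to angiotensin II. Angiotensin II raises blood pressure and sodium retention through the type 1 receptor and lowers renin release, a feedback for which renin is known in this tissue. Brush border peptidases of the proximal tubule then shorten angiotensin II to angiotensin III, angiotensin IV and smaller fragments, and kallikrein of the distal nephron releases kinins, which oppose angiotensin and are destroyed by Ace and neprilysin.

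The peptide that renin releases from angiotensinogen and Ace trims is encoded within exon 2 of Agt, and it is shown because the angiotensin peptides derive from it. The 30 bases lie at chr8:124564450-124564479 on the minus strand (GRCm38) and encode angiotensin I, residues 30 to 39 of the 482 in the annotated protein, with the 24 bases for angiotensin II in capitals and the codons that Ace removes in lower case.
Agt, angiotensin I: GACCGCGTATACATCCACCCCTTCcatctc

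The promoters of Ren1 and Klk1 are shown because these genes had the largest differences between the age groups and between the library classes described below, respectively. Each runs from 250 bases before to 50 bases after the annotated start (RefSeq, GRCm38.p6), and 8 of the 9 genes matched that table. Ren1 lies at chr1:133350424-133350723 on the plus strand, with its TATA motif in capitals, and Klk1 at chr7:44225110-44225409 on the plus strand, with its CAAT box in capitals.
Ren1: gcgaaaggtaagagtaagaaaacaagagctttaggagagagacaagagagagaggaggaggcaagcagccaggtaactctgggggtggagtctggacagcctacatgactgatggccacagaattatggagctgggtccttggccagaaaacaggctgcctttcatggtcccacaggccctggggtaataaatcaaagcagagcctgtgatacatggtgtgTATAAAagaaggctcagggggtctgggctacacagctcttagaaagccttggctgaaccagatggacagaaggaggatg
Klk1: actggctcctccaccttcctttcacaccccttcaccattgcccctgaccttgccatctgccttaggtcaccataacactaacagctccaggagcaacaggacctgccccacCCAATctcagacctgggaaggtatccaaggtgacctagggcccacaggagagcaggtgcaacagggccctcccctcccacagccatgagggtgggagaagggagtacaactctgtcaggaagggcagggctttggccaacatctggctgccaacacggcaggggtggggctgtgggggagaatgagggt

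Both strands were searched for 4 motifs. The TATA box motif, searched as TATAAA, began 29 bases before the start of Ren1, 30 bases before that of Agt and, on the minus strand, 31 bases before that of Ace, and 13.6% of all 32851 promoters hold it. On the minus strand it also began 52 bases and 1 base before the start of Enpep. A CAAT box, searched as CCAAT, began 139 bases before the Klk1 start, and 37.4% of promoters hold it. The windows of Ace, Enpep, Mme and Atp6ap2 also hold it. The cAMP response element, searched as TGACGTCA and held by 1.79% of promoters, was in neither of the windows shown. The core of a steroid receptor binding motif, searched as AGAACA and held by 19.0%, was also in neither window. The matches in the windows shown do not overlap each other and describe the letters in the windows only.

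The libraries totalled 924798 to 950974 TPM and held 10663 to 12293 genes at 1 TPM or more. Because TPM carry no read counts, library depth is unknown. Proximal tubule markers summed to between 13559.7 and 74319.8 TPM and thick ascending limb markers to between 242 and 1999 TPM, and adrenal cortex markers to at most 1.90 TPM, with Cyp11b1 and Nr5a1 at 0 throughout. Mitochondrially encoded transcripts took 19.6 to 26.1% of the scale in adult and 26.8 to 46.9% in aged libraries, so this share moved with age. Replicates 3 and 4 of both groups carried Y-linked transcripts (Ddx3y, Kdm5d, Eif2s3y and Uty summed to 34.7 to 50.6 TPM), while replicates 1 and 2 had 0.485 to 2.30 TPM. The labels do not name this split, which puts 2 libraries of each class in each age group and was defined from the data. Within each age group the mitochondrial share was also higher in the libraries with Y-linked transcripts. It was 24.5 and 26.1% against 20.9 and 19.6% in adult libraries, and 46.9 and 37.1% against 32.9 and 26.8% in aged ones. In whole kidney, fewer cells of a type and less RNA per cell cannot be told apart.

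Ren1 had the largest difference between the age groups, lower in the aged kidneys, but it did not pass the test over all genes. Ren1 (ENSMUSG00000070645, chr1:133350510-133360325, plus strand) encodes renin, whose reaction limits the rate of angiotensin formation. In adult kidneys it stood at 37.1, 20.7, 11.4 and 24.0 TPM in replicates 1 to 4, and in aged kidneys at 13.1, 5.70, 6.15 and 4.38 TPM. All aged libraries but replicate 1 lay below every adult library, and the groups overlapped by that library and adult replicate 3 alone. The adult mean was 23.3 ± 10.6 TPM and the aged mean 7.32 ± 3.90 TPM (SD, n = 4 each), a 3.18-fold ratio of the means. The log2 difference, on the log2(TPM + 1) scale used throughout, was −1.54 (SE 0.39, 95% interval −2.39 to −0.68, limma unadjusted p = 0.00218, adjusted p = 1.00). An unadjusted p under 0.05 was found for 3.39% of all genes, and a log2 difference of −1 or below for 0.958%.

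The lower level of Ren1 in aged kidneys was seen in both library classes. Libraries without Y-linked transcripts averaged 28.9 TPM (adult) and 9.38 TPM (aged), a log2 difference of −1.57, and those with them averaged 17.7 and 5.26 TPM, a log2 difference of −1.51. The test of the interaction gave 0.06 (SE 0.69, adjusted p = 1.00). With the class as a term in the model, the difference kept its size with SE 0.32 and adjusted p = 0.375. With mitochondrial genes removed and the values rescaled, the log2 difference was −1.31. Leaving out adult replicate 1 gave −1.28 and leaving out aged replicate 1 gave −1.82.

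**Figure D1:**
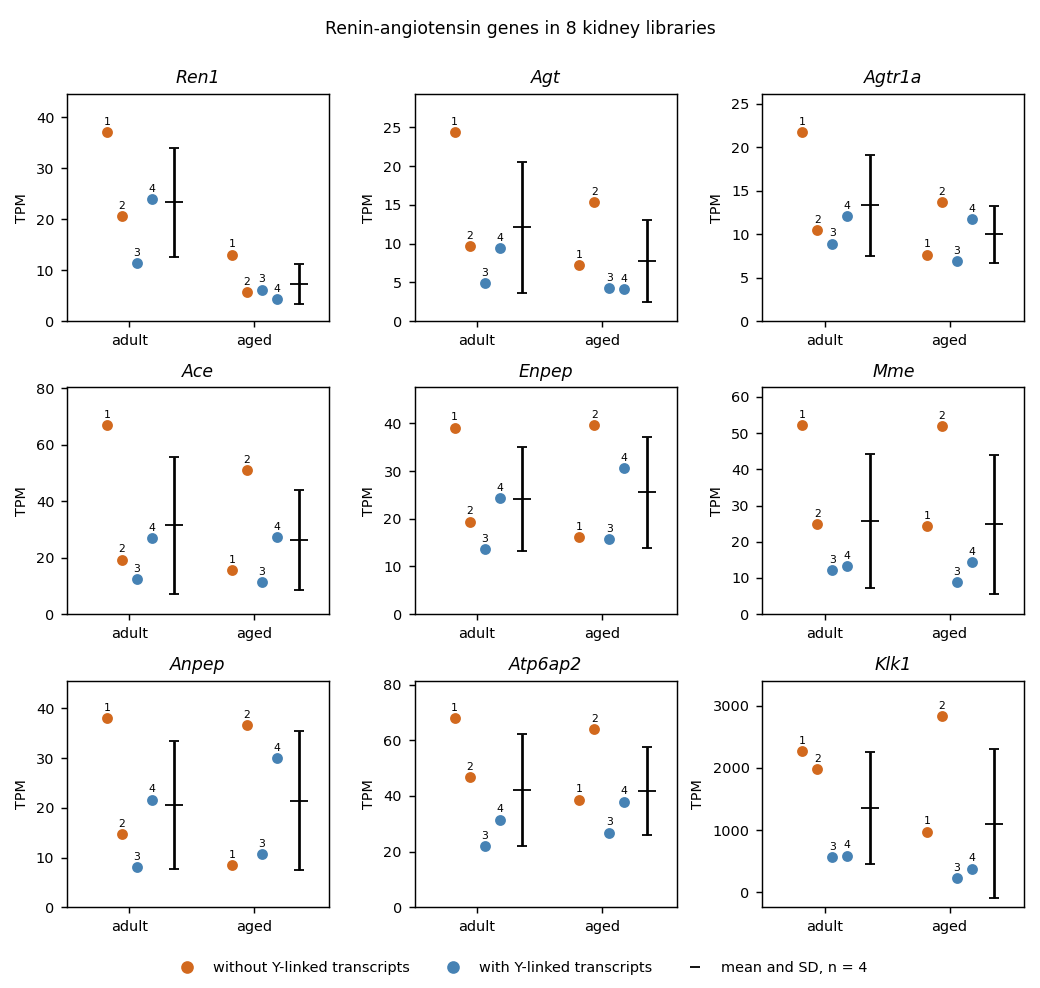
Level of each of the 9 genes in TPM (y axis, linear) in the 4 adult and 4 aged kidneys (x axis). Each point is a library with its replicate number, coloured by the presence of Y-linked transcripts, and the bars give the mean and SD. Ren1 lies at 11.4 to 37.1 TPM in adult and 4.38 to 13.1 TPM in aged libraries. For each of the 9 genes, Ren1 included, adult replicate 1 or aged replicate 2 is highest.

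Renin is made by cells of the arteriole wall, so Ren1 was also set against markers of vascular smooth muscle and pericytes. Of 8 such markers 5 passed the filter of 1 TPM (Tagln, Myl9, Acta2, Des and Pdgfrb), and their summed level over all 8 was 42.9 to 59.9 TPM in adult and 33.3 to 72.3 TPM in aged libraries. All 5 had negative differences by age, as had 65% of all genes. The difference was −0.05 for Acta2, −0.30 for Myl9 and −0.44 for Tagln. Levels relative to Myl9 or Tagln alone were not computed. The median of the 5 markers was the level of Acta2 alone, with a mean of 6.31 TPM in adult and 6.36 TPM in aged libraries. Relative to this median in the same library, Ren1 stood at 2.29, 1.25, 1.24 and 1.81 log2 units in adult replicates 1 to 4. In aged replicates 1 to 4 it stood at 0.22, 0.06, 0.35 and 0.0046 log2 units. On this relative scale every adult library lay above every aged library, and aged libraries lay close together (adult mean 1.65 ± 0.50, aged mean 0.16 ± 0.16, SD, n = 4 each). Of all genes tested, 1.2% had age groups that did not overlap on this scale. With values centred on the vascular markers, a setting chosen after seeing the data, the difference was −1.49 (SE 0.38). It had an unadjusted limma p of 0.000623 and an adjusted p of 0.668. With each of the 9 genes 4 marker lists were tried, and in 2 of these 36 pairs the age groups did not overlap, the other being Mme against thick ascending limb markers. Relative to proximal tubule markers, Ren1 was −2.53 to −2.01 in adult and −4.79 to −2.36 log2 units in aged libraries, where the groups overlapped.

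**Figure D2:**
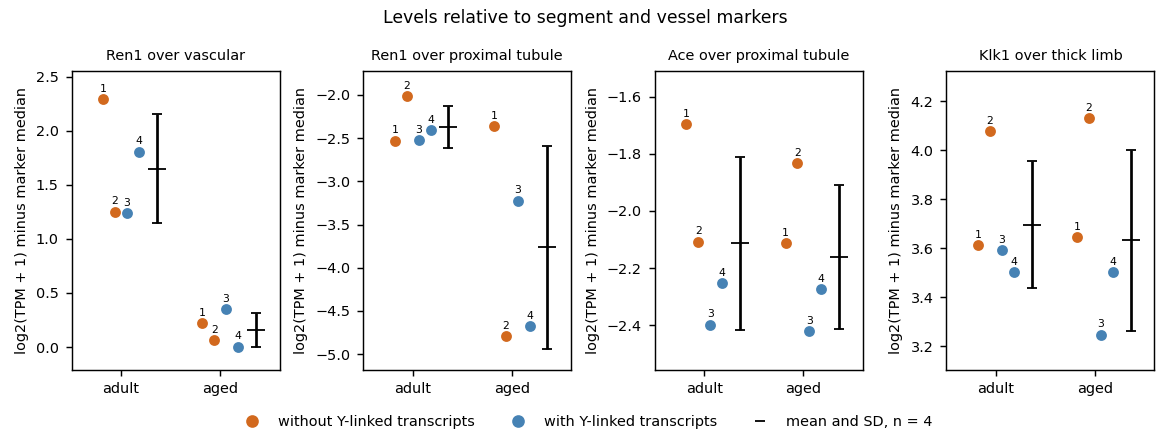
Level relative to marker genes, as log2(TPM + 1) of the gene minus the median of the markers in the same library (y axis), for adult and aged kidneys (x axis), with points and bars as in the plot of TPM. The median of the vascular markers was the level of Acta2 alone. Ren1 relative to it was at least 1.24 in adult and at most 0.35 in aged libraries. Ace relative to proximal tubule markers and Klk1 relative to thick ascending limb markers overlapped between ages.

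Agt, the renin substrate, which the proximal tubule makes in addition to the liver (ENSMUSG00000031980, chr8:124556534-124569706, minus strand), had no difference by age beyond the spread. It stood at 24.4, 9.71, 4.86 and 9.42 TPM in adult kidneys and at 7.18, 15.3, 4.25 and 4.12 TPM in the aged group. Adult replicate 1 and aged replicate 2 were highest, and the groups overlapped. The log2 difference was −0.55 (SE 0.48, adjusted p = 1.00), and −0.17 without adult replicate 1. TPM are per length, so Ren1 and Agt can be set side by side: the ratio of Ren1 to Agt level was 1.52 to 2.54 in adult libraries and 0.372 to 1.82 in aged ones, with overlap. The ratio was lowest in aged replicate 2, where Agt was the highest of the aged libraries.

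Agtr1a, the main type 1 receptor of the mouse (chr13:30336441-30382867, plus strand), stood at 21.7, 10.5, 8.90 and 12.0 TPM in adult kidneys and at 7.64, 13.6, 6.86 and 11.7 TPM in the aged group. The groups overlapped, with adult replicate 1 above all others. The log2 difference was −0.35 (SE 0.33, adjusted p = 1.00), and −0.11 without adult replicate 1. The second receptor copy, Agtr1b, was listed at 0 in 5 of 8 libraries and at most at 0.0997 TPM. Of the 31-base words of Agtr1a 3.68% occur in other genes, most of them in Agtr1b. The words were compared with mouse genes only, so sharing of reads with the human transgene was not tested. Agtr2 and the receptor gene Mas1 stood at no more than 0.0349 and 1.10 TPM, and Mrgprd was listed at 0. Of the 6 other receptor and receptor-binding genes only Agtrap and Lnpep could be tested, and 0 passed in either direction. Agtrap, which binds the receptor and promotes its internalisation, had a log2 difference of −0.35 (unadjusted p = 0.379).

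The converting enzyme and the brush border peptidases did not differ between the ages beyond the spread of the libraries. Ace (chr11:105967945-105989964, plus strand) stood at 66.9, 19.3, 12.5 and 26.9 TPM in adult kidneys and at 15.7, 50.9, 11.5 and 27.4 TPM in the aged group. Enpep (chr3:129269175-129332720, minus strand), the aminopeptidase A that turns angiotensin II into angiotensin III, stood at 39.1, 19.4, 13.7 and 24.3 TPM in adult kidneys and at 16.2, 39.6, 15.7 and 30.7 TPM in the aged group. In both genes adult replicate 1 and aged replicate 2 were the highest libraries, and the groups overlapped. Anpep (chr7:79821803-79861059, minus strand), the aminopeptidase N that makes angiotensin IV, stood at 38.0, 14.7, 8.07 and 21.6 TPM in adult kidneys and at 8.41, 36.7, 10.7 and 30.0 TPM in the aged group. Mme (chr3:63241537-63386030, plus strand), the neutral endopeptidase neprilysin, stood at 52.2, 24.9, 12.2 and 13.3 TPM in adult kidneys and at 24.2, 52.0, 8.81 and 14.4 TPM in the aged group. The same pair of libraries was at the top for each of the 4 genes, and the adult and aged ranges lay over each other.

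The log2 differences by age were −0.19 (SE 0.53) for Ace, 0.07 (SE 0.38) for Enpep, 0.01 (SE 0.53) for Anpep and −0.09 (SE 0.55) for Mme, all with adjusted p = 1.00. Their 95% intervals were wide, from −1.35 to 0.97 for Ace and from −0.77 to 0.91 for Enpep. With 4 libraries a group, differences anywhere within these bounds are therefore compatible with the data. The sign of these small differences turned with the library left out or the scaling: Ace gave 0.26 without adult replicate 1, and Mme 0.32 without it. Set against 16 proximal tubule markers, the spread was smaller. Enpep then ranged over 0.45 log2 units across all 8 libraries, Ace over 0.73, Agtr1a over 0.81 and Anpep over 0.83. Their TPM ranged 2.89-fold, 5.83-fold, 3.16-fold and 4.71-fold, which are ratios and not log2 units. Mme, with a range of 1.69 log2 units, did not follow these markers as closely. Whether other genes narrow as much on this scale was not tested. Relative to thick ascending limb markers, Mme stood at −2.18 to −1.80 in adult and −1.63 to −1.14 log2 units in aged libraries, where 0.271% of all genes had age groups that did not overlap.

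Atp6ap2 (chrX:12587801-12617049, plus strand) encodes the prorenin receptor, which is also an accessory subunit of the vacuolar proton pump. It stood at 67.9, 46.9, 22.0 and 31.5 TPM in adult kidneys and at 38.7, 64.1, 26.8 and 38.0 TPM in the aged group. The means were 42.1 ± 20.0 and 41.9 ± 15.8 TPM (SD, n = 4 each), and the groups overlapped (log2 difference 0.05, SE 0.37, adjusted p = 1.00). Of 16 other proton pump subunits 15 had negative differences by age (median −0.30, against 65% negative and a median of −0.11 over all genes). None passed in either direction.

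Klk1 (chr7:44225360-44229618, plus strand), tissue kallikrein, was by far the most abundant of the 9 genes, with a mean of 1230.4 TPM that was higher than 99.4% of all genes tested. It stood at 2269.8, 1987, 568 and 592 TPM in adult kidneys and at 977, 2837, 230 and 384 TPM in the aged group. Replicates 1 and 2 were high and replicates 3 and 4 low in both groups, and the age groups overlapped (log2 difference −0.66, SE 0.72, adjusted p = 1.00). The difference was −0.12 without aged replicate 3 and −1.33 without aged replicate 2. Of its 31-base words 40.5% also occur in other genes, most of them in Klk1b5 (299 words), so reads can be traded among the kallikrein copies. The 13 copies of the Klk1b family summed to only 2.18 to 11.9 TPM.

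No member passed the test between the ages, as 0 of 9 were called and 0% of all 11796 genes were. The groups did not overlap in TPM for 0 of the 9 genes, against 2.46% of all genes. Negative differences were found for 6 of 9 members and for 65% of all genes, and the median difference was −0.19 for the members and −0.11 for all genes. Adult replicate 1 was the highest library for 7 of the 9 members, and for 45.8% of all genes tested, while aged replicate 2 was highest for Enpep and Klk1. In that library Ren1 was at 5.70 TPM, below all adult libraries, while each of the other 8 genes had its highest or next highest value there.

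**Figure D3:**
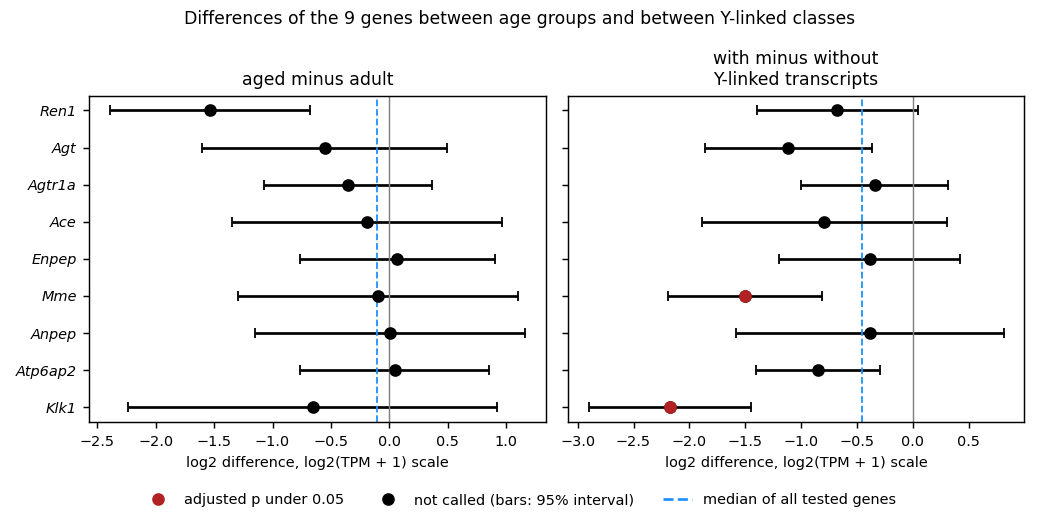
Log2 difference on the log2(TPM + 1) scale (x axis) for each of the 9 genes (y axis), aged minus adult on the left and libraries with minus without Y-linked transcripts on the right, with 95% limma intervals. Red points have an adjusted p under 0.05, and the dashed line marks the median of all tested genes, −0.11 on the left and −0.46 on the right.

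The split by Y-linked transcripts separated members that the ages did not. Klk1 and Mme were lower in the 4 libraries with Y-linked transcripts, and both passed the test over all genes with age as a term. Klk1 averaged 443 ± 170 TPM with and 2017 ± 779 TPM without Y-linked transcripts (SD, n = 4 each, log2 difference −2.18, SE 0.32, limma adjusted p = 0.00431). Mme averaged 12.2 ± 2.43 and 38.3 ± 15.9 TPM (log2 difference −1.50, SE 0.31, adjusted p = 0.0181). For both genes every library with Y-linked transcripts lay below every library without them. Of the 9 members 2 were called, both lower, and of all genes 12.4% were called, 11.3% lower and 1.13% higher, and nothing particular to the members is read from this count. Of the 1464 genes called, 1331 were lower with Y-linked transcripts as deposited, against 292 of 640 with size factors. The classes did not overlap for 3 of 9 members (Klk1, Mme and Atp6ap2), against 22.6% of all genes.

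The other 7 members did not pass between the classes. Atp6ap2 averaged 29.6 ± 6.79 TPM with and 54.4 ± 13.9 TPM without Y-linked transcripts (log2 difference −0.85, SE 0.25, adjusted p = 0.0529), and Agt 5.66 ± 2.53 and 14.1 ± 7.62 TPM (−1.12, SE 0.33, adjusted p = 0.0550). Ren1 had 11.5 ± 8.85 and 19.1 ± 13.5 TPM (−0.68, adjusted p = 0.146), and Ace had a difference of −0.79 (adjusted p = 0.232). Agtr1a, Enpep and Anpep had differences of −0.34, −0.39 and −0.39 (adjusted p = 0.371, 0.408 and 0.570). Without adult replicate 1 these were −0.11, −0.15 and −0.04, and that of Ace was −0.41. All 9 were negative, as were 89.2% of all genes, whose median was −0.46. With mitochondrial genes removed all 9 were still negative, as were 81.7% of all genes (median −0.33). Under size factors, where the median of all genes was 0.01, Agtr1a, Enpep and Anpep turned positive (0.18, 0.16 and 0.15), while Klk1 (−1.61) and Mme (−0.96) were still called. The differences of Agt, Atp6ap2, Ace and Ren1 were then −0.61, −0.29, −0.25 and −0.15, smaller than as deposited, and none was called. The interaction of age and class passed for 0 of 9 members and for 0.0339% of all genes.

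The call of Klk1 was kept without each library in turn, whereas that of Mme was lost without adult replicate 1, adult replicate 3, aged replicate 2 or aged replicate 3 (adjusted p from 0.0527 to 0.0680). With values centred on proximal tubule markers, a setting chosen after seeing the data, neither was called (Klk1 −1.78, adjusted p = 0.139, and Mme −1.11, adjusted p = 0.264).

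Markers of nephron segments moved with the classes. All 5 thick ascending limb markers were called lower in libraries with Y-linked transcripts (median −1.60). Of all genes 11.3% were called lower and 89.2% were negative (median −0.46). The 5 include the salt transporter gene Slc12a1 (−1.60, adjusted p = 0.00236), Umod (−2.01, adjusted p = 0.00676) and Kcnj1 (−1.59, adjusted p = 0.00462). Their summed level was 242 to 501 TPM with and 923 to 1999 TPM without Y-linked transcripts. All 5 tested distal convoluted and connecting tubule markers had negative differences (median −1.34) and 2 were called, against 11.3% of all genes called lower, namely Pvalb (−1.43, adjusted p = 0.00901) and Calb1 (−1.36, adjusted p = 0.0416). Relative to the thick limb markers, Klk1 stood at 3.25 to 3.59 log2 units with and 3.61 to 4.13 without Y-linked transcripts, a difference of −0.40 in place of −2.18. Relative to the distal and connecting tubule markers, near where kallikrein is made, it stood at 3.60 to 4.43 and 4.64 to 5.08 log2 units, a difference of −0.82. The median of these distal and connecting tubule markers was the level of Calb1 alone. The classes did not overlap on these scales, in either direction, for 68.9% and 14.8% of all genes. How many of these genes were lower with Y-linked transcripts, as Klk1 was, was not counted. The part of these segments in the Klk1 difference was not tested.

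Proximal tubule markers did not move together. Of 16, 11 had negative differences by class (median −0.58, against 89.2% negative and a median of −0.46 over all genes). Called higher in libraries with Y-linked transcripts were 3, against 1.13% of all genes. They were the transporter gene Slc7a13 (6.91, adjusted p = 2.38e-07), Kap, the androgen-regulated kidney protein gene (2.12, adjusted p = 0.000166), and Acsm2 (1.72, adjusted p = 0.0313). The anion transporter gene Slc22a7 was called lower (−1.75, adjusted p = 0.0497), against 11.3% of all genes. Relative to the median of these 16 markers, Mme stood at −3.21 to −2.43 with and −2.05 to −1.52 log2 units without Y-linked transcripts, and 5.13% of all genes had classes that did not overlap on this scale. On the same scale Enpep, Anpep and Agtr1a differed by 0.01, 0.01 and 0.05 between the classes. The median of all genes there was −0.07, so values near 0 are not particular to these members.

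**Figure D4:**
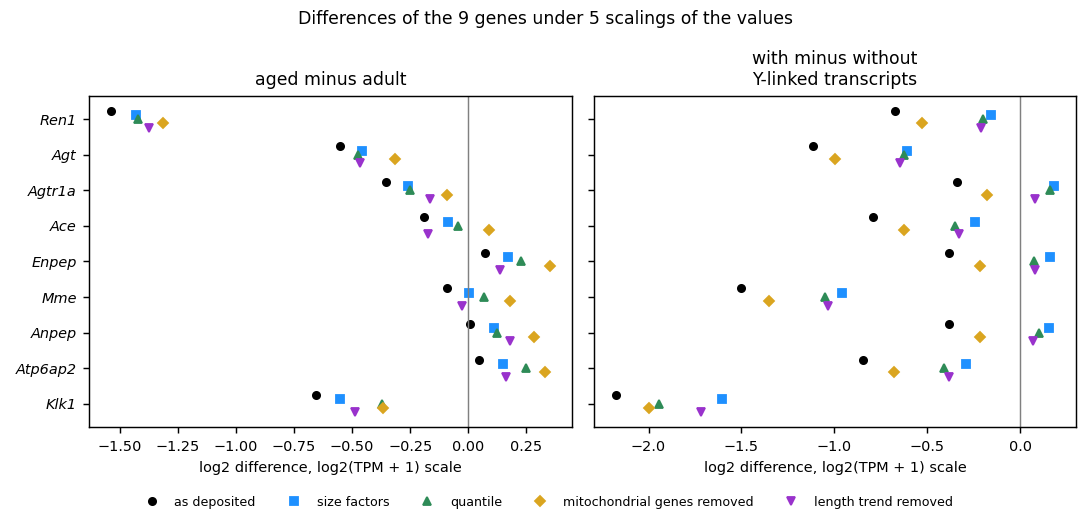
Log2 difference on the log2(TPM + 1) scale (x axis) of each of the 9 genes (y axis) under 5 scalings of the values, aged minus adult on the left and with minus without Y-linked transcripts on the right. Ren1 on the left lies between −1.54 and −1.31 in all 5, and on the right Agtr1a, Enpep and Anpep cross 0 under size factors, quantile normalization and removal of the length trend, while Klk1 stays between −2.18 and −1.61.

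Other genes of the angiotensin and kinin pathways were taken as whole lists. Of 21 other peptidases 17 could be tested, and 0 passed by age. Among these 17, 15 were negative by age (median −0.19), against 65% of all genes (median −0.11). By class only Cpn1, a subunit of the kinin-cleaving carboxypeptidase N, was called, at 21.1 TPM with and 69.4 TPM without Y-linked transcripts (−1.56, adjusted p = 0.0251). Of the kinin genes 3 of 7 could be tested, and Kng2, a kininogen gene and so a precursor of the peptides that Klk1 releases, was lower with Y-linked transcripts (70.0 and 258 TPM, −1.83, adjusted p = 0.00341). The kallikrein copy Klk1b9 was lower as well (0.686 and 2.15 TPM, −0.91, adjusted p = 0.0365), although reads can be traded with Klk1. None of these 3 genes had a called difference by age. Over all genes 11.3% were called lower by class and 89.2% were negative.

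Genes of the aldosterone response, downstream of angiotensin II, gave 0 calls by age among 9 tested (3 negative, median 0.15, against 65% of all genes negative). By class all 9 were negative (median −1.03, against 89.2% of all genes negative) and 3 were called lower with Y-linked transcripts, against 11.3% of all genes, namely Scnn1g, a subunit of the epithelial sodium channel (−1.03, adjusted p = 0.0250), Hsd11b2, which protects the mineralocorticoid receptor from glucocorticoids (−1.33, adjusted p = 0.0283), and Nr3c2, that receptor (−0.91, adjusted p = 0.0361). Of 10 tested regulators of renin cells and the macula densa 0 passed by age or by class. By age 7 were negative (median −0.19), against 65% of all genes (median −0.11). Those with the smallest unadjusted limma p by age were Akr1b7, a gene of renin cells (−0.48), Nr1h3 (−0.39) and Ep300 (0.34), with p from 0.162 to 0.267. Of the 16 proton pump subunits 1 was called lower by class, against 11.3% of all genes. It was Atp6v1b1, the subunit of intercalated cells (−1.31, adjusted p = 0.0375).

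Markers of the other cell types gave 0 calls by age. All 5 red cell markers had negative differences by age (median −1.08, with −1.44 for Hba-a1 and −1.41 for Hba-a2). All 8 endothelial and all 6 podocyte markers had positive ones (medians 0.18 and 0.20). Over all genes 65% were negative by age as deposited (median −0.11), and 31.5% with mitochondrial genes removed. Among vascular markers Tagln had a difference of −0.44 (unadjusted p = 0.164), among 8 endothelial markers Flt1 had 0.60 (unadjusted p = 0.0938), and among 6 podocyte markers Synpo had 0.28 (unadjusted p = 0.340). By class, Avpr2 of the 6 principal and intercalated cell markers (−1.09, adjusted p = 0.0174), C1qa of the 6 tested macrophage and leukocyte markers (−1.26, adjusted p = 0.0436), and Alas2 and Hba-a1 of the 5 red cell markers (−1.96 and −2.08, adjusted p = 0.0330 and 0.0497) were lower with Y-linked transcripts. Over all genes 11.3% were called lower by class. Red cell markers summed to 933 to 14661 TPM and were lowest in aged replicate 2 and highest in aged replicate 1. Their part in the results on the members was not tested. Of 5 salivary gland markers 3 were at 0, and Amy1 had a difference of 0.06 by age.

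The members also differed in which other genes had the most similar pattern over the 8 libraries. Likeness was measured as the root mean square difference of log2(TPM + 1), centred on each gene's mean, among 7388 other genes with a mean of at least 5 TPM. The nearest genes lay within 0.09 log2 units of Agtr1a (Gpr146, Prkcz and Npepl1), 0.08 of Atp6ap2 (Iqgap1, Glyr1 and Ddx39b) and 0.11 of Enpep (Dnm2, Scpep1 and Rpn2). They lay within 0.14 of Ace (Tmbim6, Habp2 and Igsf11), 0.18 of Anpep (Abca3, Slc34a1 and Car12), 0.18 of Mme (Emb, Kcnj10 and Itga6), 0.19 of Agt (Retsat, Tmem184a and Cyp2d22) and 0.28 of Klk1 (Gsta2, Ugt2b34 and Hao2). Ren1 had no close neighbour: its nearest genes were Abhd4 at 0.45 and Ppp2r3d at 0.47, the latter with an identical row under a second identifier.

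Among the members themselves, Agtr1a and Enpep were closest (0.27), followed by Enpep and Anpep (0.30) and by Ace and Anpep (0.31). Ren1 lay at least 0.76 from every other member, with Agt the nearest. These distances describe 8 libraries that share the split by Y-linked transcripts and the depth of each library.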

How the data were processed

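The deposited table holds TPM in 8 columns, 1 for each library, whose names match the sample titles. Kallisto, DESeq2 and the build GRCm38 appear in the submitters' processing notes, without versions or roles. The step that made the TPM and its annotation are not given in the sources at hand. Stranded libraries were made from polyadenylated RNA purified with Qiagen columns, per the labels' protocols. Of 30153 identifiers 29732 were matched to symbols, and 7 that shared a symbol were summed.

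Libraries were compared by limma 3.58.1 in R 4.3.3 with a trend, on log2(TPM + 1), over genes with a mean of at least 1 TPM, with Benjamini-Hochberg adjustment over all genes and a threshold of 0.05. A fold change on that scale understates the change of low genes. Libraries were classed by a summed Y-linked level above 10 TPM, and the class contrast had the age group as a term. The design text gives 4 animals per group, so replicates are separate animals. The fit was tested on simulated data. Coordinates, exons and 31-base words came from GENCODE M21, and promoters from RefSeq. Relative levels subtract the median log2(TPM + 1) of a marker list in the same library.

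The members, lists and tests were chosen with earlier results of these data known. Named were all 9 members, up to 4 called genes of each list or else up to 3 with the smallest unadjusted p by age, and 3 genes of most similar pattern per member. Some genes of this system are not reported here. Alternatives were other pseudocounts, filters, scalings and limma options, the class as a term, fits within each class, the replicate number as a block and each library left out. Subtraction of a transcript length trend from every library and the 2 centrings on markers were added after the data were seen.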

Additional observations from a re-analysis of the deposited data

How the results depend on the processing

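Between the ages, no member passed under any alternative run, and the log2 difference of Ren1 lay between −1.82 and −1.28 with each library left out and between −1.66 and −1.17 under the other alternatives. By age, 0 genes were called as deposited (400 at an unadjusted p under 0.05), 1 with array weights and 3 centred on vascular markers. Leaving out each library in turn gave 0 to 2 calls. Fits of age within each class called 3 genes in libraries without Y-linked transcripts and 16 in those with them. These fits had 2 libraries per age group. Adding the class to the model gave 0 calls (998 at an unadjusted p under 0.05), or 0 to 3 with each library left out. The replicate number as a block was fitted for the age contrast only and gave 0 calls (Ren1 adjusted p = 0.451). Deviations of the libraries with the same number correlated at 0.04, 0.18, 0.49 and 0.42, and replicate 1 of the adult group was closer to replicate 2 of the aged group (0.57), so the numbers were not taken to pair the animals, although same-numbered libraries also share the Y-linked class. Small age differences reversed, Ace to 0.087 and Mme to 0.18 with mitochondrial genes removed. Mme also gave 0.0045 with size factors, 0.067 with quantile normalization, 0.29 with array weights and 0.049 centred on proximal tubule markers. Within the libraries without Y-linked transcripts Enpep gave −0.11, Anpep −0.40 and Atp6ap2 −0.18. With each library left out, Ace ranged from −0.57 to 0.26, Enpep from −0.17 to 0.33, Mme from −0.53 to 0.32, Anpep from −0.34 to 0.36, Atp6ap2 from −0.22 to 0.31, Agt from −0.91 to −0.17, Agtr1a from −0.51 to −0.11 and Klk1 from −1.33 to −0.12. Between the classes, 1464 genes were called, against 762 with no filter, 640 with size factors, 636 with quantile normalization, 706 with mitochondrial genes removed, 4291 with array weights, 661 with the length trend removed, 117 centred on proximal tubule markers, and 392 to 1953 with each library left out (omission of aged replicates 2 and 3 gave 392 and 400, and omission of adult replicates 1, 2, 3 and 4 gave 543, 898, 434 and 809). The class difference of Agtr1a reversed to 0.18 with size factors, 0.16 with quantile normalization, 0.077 with the length trend removed and 0.052 centred on proximal tubule markers, that of Enpep to 0.16, 0.073, 0.081 and 0.0060, and that of Anpep to 0.15, 0.10, 0.071 and 0.0063 in the same order. With each library left out, the class difference ranged from −1.15 to −0.41 for Ace, −0.53 to −0.11 for Agtr1a, −0.67 to −0.15 for Enpep, −0.87 to −0.04 for Anpep, −1.37 to −0.88 for Agt, −1.04 to −0.70 for Atp6ap2 and −0.90 to −0.47 for Ren1. Mme lost its call with no filter as well (adjusted p = 0.0554), where more genes were tested. Agt and Atp6ap2 were called with array weights (adjusted p = 0.0176 and 0.0128), Agt also without adult replicate 2 or aged replicate 1, and Atp6ap2 with the filter at 5 TPM and without aged replicate 1 or aged replicate 4. The interaction was called for 4 genes, 0 with no filter, 2 with size factors and 1 to 16 with each library left out. The cause of these changes was not tested. TPM keep no counts, so the depth behind the low members cannot be given.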

Other observations

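Of the 9 tested genes of the aldosterone response, Fkbp5 and Sgk1 had the largest positive differences by age, and neither passed the test. Fkbp5, which encodes a chaperone of steroid receptors, had a mean of 7.46 TPM in the adult and 21.3 TPM in the aged group (log2 difference 1.31, SE 0.48, limma unadjusted p = 0.0188, adjusted p = 1.00). Sgk1, the kinase that keeps the sodium channel at the cell surface, averaged 35.1 and 61.6 TPM (log2 difference 0.70, SE 0.44, adjusted p = 1.00). These genes were singled out after their values were seen.

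The 4 genes called for the interaction of age group and Y-linked class were Gm10925, Gm12918, Gm28438 and Gm4737, with values of −3.70, −5.06, −4.37 and 6.17 on the log2 scale (limma adjusted p = 0.00956, 0.0196, 0.00911 and 0.00269). None is a gene of the angiotensin or kinin pathways.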
